A study of Mus musculus with 24 samples.

Results

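The enzymes that break down tryptophan along the kynurenine route were followed in ATAC-seq of mouse bone marrow-derived macrophages (BMDMs), a measurement of how open the chromatin is to the Tn5 transposase. The 8 genes were Ido1, Ido2, Tdo2, Il4i1, Afmid, Kmo, Kynu and Haao. Their regions were the consensus peaks that overlapped the annotated gene or the 20 kb on either side of it, each peak given to the nearest of the 8 genes. The rule used no measured value and found 96 of the 184158 consensus peaks, of which 94 passed the filter on low counts, among 174193 peaks tested in all. The 2 that did not pass lay in the Kynu gene and downstream of Tdo2.

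The study compared WT BMDMs of C57BL/6J mice with BMDMs of AhR KO/KO mice (AhR-deficient, AhR-KO in the plots), which carry the germline null allele of the B6.129-Ahr tm1Bra/J line and lack the aryl hydrocarbon receptor in every cell. Each genotype was left unstimulated or given the TLR4 ligand LPS, with 6 libraries in each of the 4 groups and 24 in all, from 6 animals a group in 1 experiment by the study's methods. All cultures, controls included, were grown for 6 days with 10% serum, GM-CSF at 10 ng/ml and TGF-β at 2 ng/ml, which turns the cells towards alveolar-like macrophages. LPS was given at 97 EU/ml for 24 h, and the Ca2+ ionophore A23187 was added at 5 µM for 10 min at the end. The labels attach this treatment text to every library, and the mice were of both sexes and matched for age.

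Tryptophan is opened to N-formylkynurenine by Ido1, Ido2 or Tdo2, and the formamidase Afmid turns that product into kynurenine. Kmo hydroxylates kynurenine, Kynu cleaves the hydroxylated product and Haao carries it towards quinolinic acid and NAD. Il4i1 is a secreted amino acid oxidase of myeloid cells that converts tryptophan to indole-3-pyruvate. Kynurenine and products of indole-3-pyruvate are known ligands of AhR, and Ido1 is known as an AhR target and as an enzyme of tolerogenic dendritic cells.

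Peaks are named here by the gene and by the distance in kb of the peak's centre from the annotated gene start, counted along the gene. The windows below are the 300 bases at the centre of 6 peaks that carry the genotype results, on the plus strand of mm10 (GRCm38). They are shown for the letters of 4 motifs in capitals, namely GCGTG (the core that AhR and its partner Arnt bind), an interferon regulatory factor site (GAAA, any 2 bases, GAAA), TTCNNNGAA (a STAT site) and TGANTCA (an AP-1 site). Both strands were searched, so that a match on the minus strand appears as its reverse complement. The place named after each range is that of the whole peak, and a start named there can lie outside the window. The 4 motifs were in 16.3%, 4.60%, 11% and 18.1% of the same windows over all tested peaks on the chromosomes.
Ido1 +0.8 kb (chr8:24596104-24596403, at the gene start): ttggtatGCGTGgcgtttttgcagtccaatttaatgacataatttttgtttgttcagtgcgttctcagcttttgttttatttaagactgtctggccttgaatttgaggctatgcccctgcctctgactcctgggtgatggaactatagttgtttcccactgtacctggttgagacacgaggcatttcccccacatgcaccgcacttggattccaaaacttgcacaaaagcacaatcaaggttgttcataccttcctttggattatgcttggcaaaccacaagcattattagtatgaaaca
Ido2 +21.6 kb (chr8:24554544-24554843, at the start of a non-coding transcript of Ido2): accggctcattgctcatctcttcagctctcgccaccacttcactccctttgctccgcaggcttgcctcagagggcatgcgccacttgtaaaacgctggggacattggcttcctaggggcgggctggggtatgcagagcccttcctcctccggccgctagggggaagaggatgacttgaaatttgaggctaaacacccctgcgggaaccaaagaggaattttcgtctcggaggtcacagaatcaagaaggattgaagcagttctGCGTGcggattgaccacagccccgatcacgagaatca
Il4i1 +17.9 kb (chr7:44834142-44834441, intron): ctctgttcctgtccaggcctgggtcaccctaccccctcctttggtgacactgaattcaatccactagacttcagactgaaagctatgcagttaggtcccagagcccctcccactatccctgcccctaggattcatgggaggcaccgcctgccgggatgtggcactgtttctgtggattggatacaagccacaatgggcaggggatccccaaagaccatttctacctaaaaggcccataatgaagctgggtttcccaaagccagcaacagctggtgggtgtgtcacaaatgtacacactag
Kmo +11.4 kb (chr1:175631625-175631924, at an internal start of coding transcripts): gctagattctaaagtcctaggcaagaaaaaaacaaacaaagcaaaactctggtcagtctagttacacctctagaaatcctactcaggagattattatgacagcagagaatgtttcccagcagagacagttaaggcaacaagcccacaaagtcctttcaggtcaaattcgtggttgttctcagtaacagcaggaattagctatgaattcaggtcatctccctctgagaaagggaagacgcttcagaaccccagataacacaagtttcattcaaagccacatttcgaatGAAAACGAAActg
Kynu +116.4 kb (chr2:43671562-43671861, peak over a coding exon): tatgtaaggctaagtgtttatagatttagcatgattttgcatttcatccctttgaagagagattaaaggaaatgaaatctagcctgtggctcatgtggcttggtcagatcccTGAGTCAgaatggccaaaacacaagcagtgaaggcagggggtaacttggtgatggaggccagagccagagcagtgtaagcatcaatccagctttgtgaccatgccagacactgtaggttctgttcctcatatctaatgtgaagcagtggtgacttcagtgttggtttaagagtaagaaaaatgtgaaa
Tdo2 -7.2 kb (chr3:81983218-81983517, upstream, within Asic5): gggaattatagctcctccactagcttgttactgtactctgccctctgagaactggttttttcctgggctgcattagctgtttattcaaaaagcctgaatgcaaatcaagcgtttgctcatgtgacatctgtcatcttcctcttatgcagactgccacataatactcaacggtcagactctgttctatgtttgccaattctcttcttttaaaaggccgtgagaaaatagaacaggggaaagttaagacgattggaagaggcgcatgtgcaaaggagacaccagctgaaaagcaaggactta
The Ido1 and Ido2 windows each held GCGTG on the plus strand, the Kmo +11.4 kb window held the interferon regulatory factor site and the Kynu window held TGANTCA. The Ido1 window lay inside the gene and did not reach its start at chr8:24597009, which only the whole peak covered. The Kmo window ended before the RefSeq promoter of the gene (chr1:175631943-175632242), which held none of the 4 motifs. The Il4i1 and Tdo2 windows held none of the 4. A match is a description of these letters, and a window without one says only that they are not in these 300 bases.

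A peak was called where edgeR's quasi-likelihood test, adjusted over all 174193 peaks by Benjamini-Hochberg, gave at most 0.05 and the fold change was at least 1.5 in either direction. Levels are CPM, counts scaled to a common library total after TMM, with SD over 6 libraries. Fold changes are AhR-deficient against WT unless LPS against unstimulated is named. The total count in peaks ran from 8536838 to 34598345 per library, with the lowest in the unstimulated and the highest in the LPS-stimulated WT group. As a check of the genotype, the start peak of Ahrr, a known AhR target that encodes the AhR repressor, had a mean of 11 CPM in WT and 3.28 CPM in AhR-deficient unstimulated cultures, and 11.2 and 2.32 CPM after LPS. The start peak of Ahr itself had 22.5, 13.2, 20.1 and 14.7 CPM in the same order, and counts there do not test which part of the gene the allele removes.

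In unstimulated cultures 13 of the 94 tested peaks were lower and 9 higher in AhR-deficient BMDMs, 23.4% of them, beside 22.6% of all tested peaks called (12.6% lower and 9.95% higher). After LPS 21 were lower and 6 higher, 28.7% of the 94 beside 26.5% of all tested peaks (13.1% lower and 13.4% higher). The median log2 fold change over the 94 peaks was -0.07 unstimulated and -0.01 after LPS, and over all tested peaks it was -0.02 and 0.02. The share called was thus near the background in both, while after LPS 22.3% of the 94 were lower and 6.38% higher. In bulk libraries a smaller share of some cell type and less accessibility per cell cannot be told apart. No peak of Ido1, Ido2, Il4i1 or Kmo was higher in AhR-deficient cultures under either treatment, and no peak of Tdo2 was lower. Kynu, Haao and Afmid had calls in each direction.

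**Figure D1:**
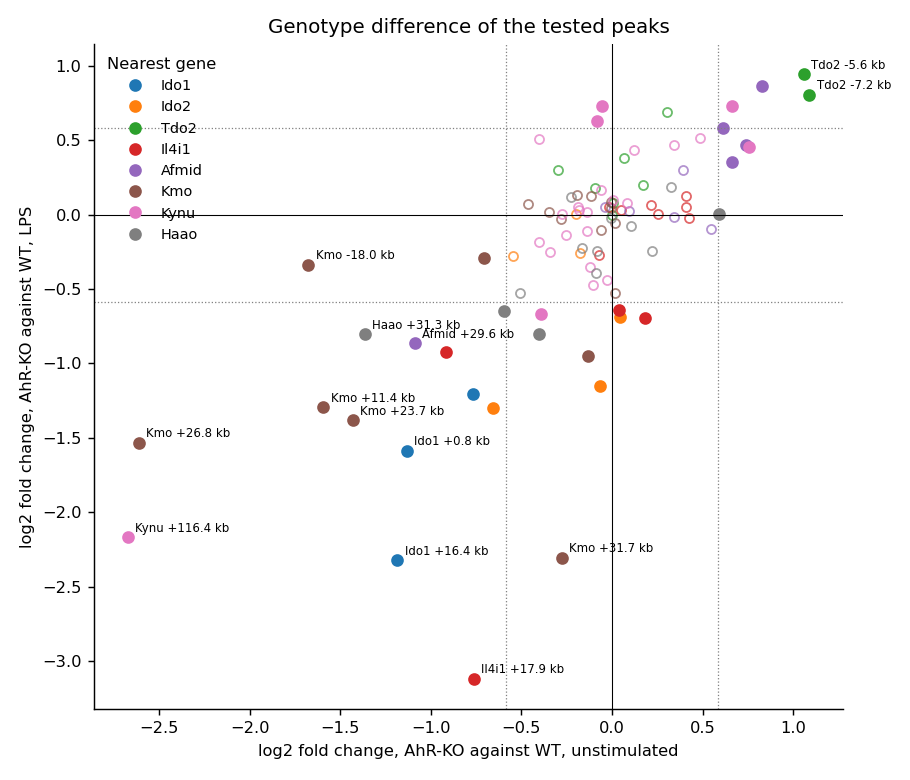
Log2 fold change of AhR-deficient (AhR-KO) against WT BMDMs in unstimulated (x axis) and LPS-stimulated (y axis) cultures for the 94 tested peaks, coloured by nearest gene, filled where called in at least 1 of the 2 comparisons, with dotted lines at a fold change of 1.5. The lower left holds peaks of Ido1, Kmo, Kynu, Haao, Afmid, Ido2 and Il4i1, the upper right those of Tdo2 and Afmid with 1 of Kynu. Il4i1 +17.9 kb and Kmo +31.7 kb lie far lower on the LPS axis than on the unstimulated axis.

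With LPS 19 peaks were lower and 20 higher in WT, 41.5% of the 94 beside 47.0% of all tested peaks (21.6% lower and 25.4% higher). In AhR-deficient cultures 18 were lower and 20 higher, 40.4% beside 48.8% (21.5% lower and 27.3% higher). All calls at Ido2 and Il4i1 were higher with LPS in both genotypes, and all calls at Haao were lower. Kmo had 9 of 17 peaks lower and 1 higher in WT, the higher one being Kmo +31.7 kb, and 5 lower in AhR-deficient cultures. The genotype difference changed with LPS at 9 peaks, 6 to a lower and 3 to a higher AhR-deficient level relative to WT, 9.57% of the 94 beside 10.4% of all tested peaks (4.58% and 5.83%). They lay at Il4i1 (3), Kmo (4), Ido2 (1) and Kynu (1), and none at Ido1, Tdo2, Afmid or Haao. Groups of 6 libraries did not overlap between the genotypes at 23 of the 94 peaks in unstimulated cultures (21% of all tested peaks) and at 23 after LPS (19.6%), and with LPS at 34 in WT (38.7%) and 40 in AhR-deficient cultures (45.6%). Without the limit on the fold, 39 of the 94 passed by genotype in unstimulated cultures (40.1% of all tested peaks), 44 after LPS (44.7%), 57 with LPS in WT (63.9%), 63 with LPS in AhR-deficient cultures (66.2%) and 16 for the change of the genotype difference (15.3%).

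Ido1 encodes indoleamine 2,3-dioxygenase, the inducible first enzyme of the pathway (chr8:24584136-24597009, minus strand), and each of its 3 peaks had a lower mean in AhR-deficient cultures under both treatments. In unstimulated WT cultures the peak over the Ido1 start (chr8:24595126-24597380) had a lowest, median and highest level of 11.4, 15 and 17.9 CPM, against 5.98, 6.77 and 7.78 CPM in AhR-deficient cultures. After LPS the levels were 10.9, 19 and 26.7 CPM in WT and 5.17, 6.33 and 7.06 CPM in AhR-deficient cultures. Under neither treatment did the genotypes overlap. The Ido1 start peak was 2.19-fold lower in unstimulated (log2 fold change -1.13 ± 0.18 (SE), adjusted p = 1.04e-05, edgeR) and 3.0-fold lower in LPS-stimulated AhR-deficient cultures (-1.59 ± 0.17, adjusted p = 3.68e-08). LPS itself gave a log2 fold change of 0.32 ± 0.16 in WT (adjusted p = 0.085) and -0.13 ± 0.18 in AhR-deficient cultures (adjusted p = 0.538), neither of them called.

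The other peaks of Ido1 were small. The upstream peak Ido1 -8.5 kb, which lies within Adam18, was lower in AhR-deficient cultures by log2 fold changes of -0.77 ± 0.24 (adjusted p = 0.0112) and -1.21 ± 0.22 (adjusted p = 1.9e-05), with single libraries of the genotypes overlapping. Downstream of the gene, Ido1 +16.4 kb had 0.240 ± 0.149 CPM in unstimulated WT, 0.110 ± 0.0855 CPM in unstimulated AhR-deficient, 1.11 ± 0.567 CPM in LPS-stimulated WT and 0.216 ± 0.136 CPM in LPS-stimulated AhR-deficient cultures. It rose with LPS in WT (log2 fold change 2.16 ± 0.41, adjusted p = 3.14e-05) and was lower in AhR-deficient cultures after LPS (-2.32 ± 0.39, adjusted p = 1.1e-05). These values rest on 1 to 52 counts a library, and the genotype groups overlapped.

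Ido2, a paralogue of Ido1 next to it on chromosome 8 (chr8:24531892-24576333, minus strand), had no peak over the start of a coding transcript and held the largest LPS response of the 94 peaks. LPS raised 4 of its 6 peaks in each genotype. In unstimulated WT cultures Ido2 +21.6 kb (chr8:24554095-24555291) had a lowest, median and highest level of 4.77, 6.5 and 7.63 CPM, and LPS took these to 14.6, 22.7 and 31 CPM. In AhR-deficient cultures they were 3.86, 4.16 and 4.47 CPM unstimulated and 7.43, 9.08 and 11.4 CPM after LPS. Every LPS-stimulated library was thus above every unstimulated library of its genotype, and the genotypes did not overlap under either treatment. The rise with LPS was 3.40-fold in WT and 2.18-fold in AhR-deficient cultures (log2 fold changes 1.77 ± 0.16 and 1.13 ± 0.17, adjusted p = 1.38e-10 and 1.35e-06). The change of the genotype difference with LPS was not called at this peak. AhR-deficient cultures were 1.58-fold lower unstimulated (-0.66 ± 0.18, adjusted p = 0.00404, and -0.58 and not called with DESeq2) and 2.46-fold lower after LPS (-1.30 ± 0.15, adjusted p = 5.63e-08).

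The intronic peak Ido2 +16.8 kb (chr8:24559243-24559744) was near 1 CPM in both genotypes without LPS, with 0.782, 1.13 and 1.37 CPM in WT and 0.905, 1.02 and 1.27 CPM in AhR-deficient cultures. After LPS it had 7.33, 9.36 and 13 CPM in WT and 3.80, 4.39 and 5.01 CPM in AhR-deficient cultures, again with no overlap. LPS raised it 8.98-fold in WT (log2 fold change 3.17 ± 0.16, adjusted p = 6.93e-19) and 4.23-fold in AhR-deficient cultures (2.08 ± 0.16, adjusted p = 8.08e-14), and the genotype difference changed with LPS by -1.09 ± 0.24 on the log2 scale (adjusted p = 0.00211). A smaller intronic peak, Ido2 +7.5 kb, rose 12.8-fold in WT and 7.68-fold in AhR-deficient cultures, from 3 to 9 counts a library in unstimulated WT. After LPS it was lower in AhR-deficient cultures (-0.69 ± 0.16, adjusted p = 0.000426), and the change of that difference did not pass the test (-0.73 ± 0.39, adjusted p = 0.206). The peak over a coding exon at Ido2 +29.1 kb was not called in any comparison.

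**Figure D2:**
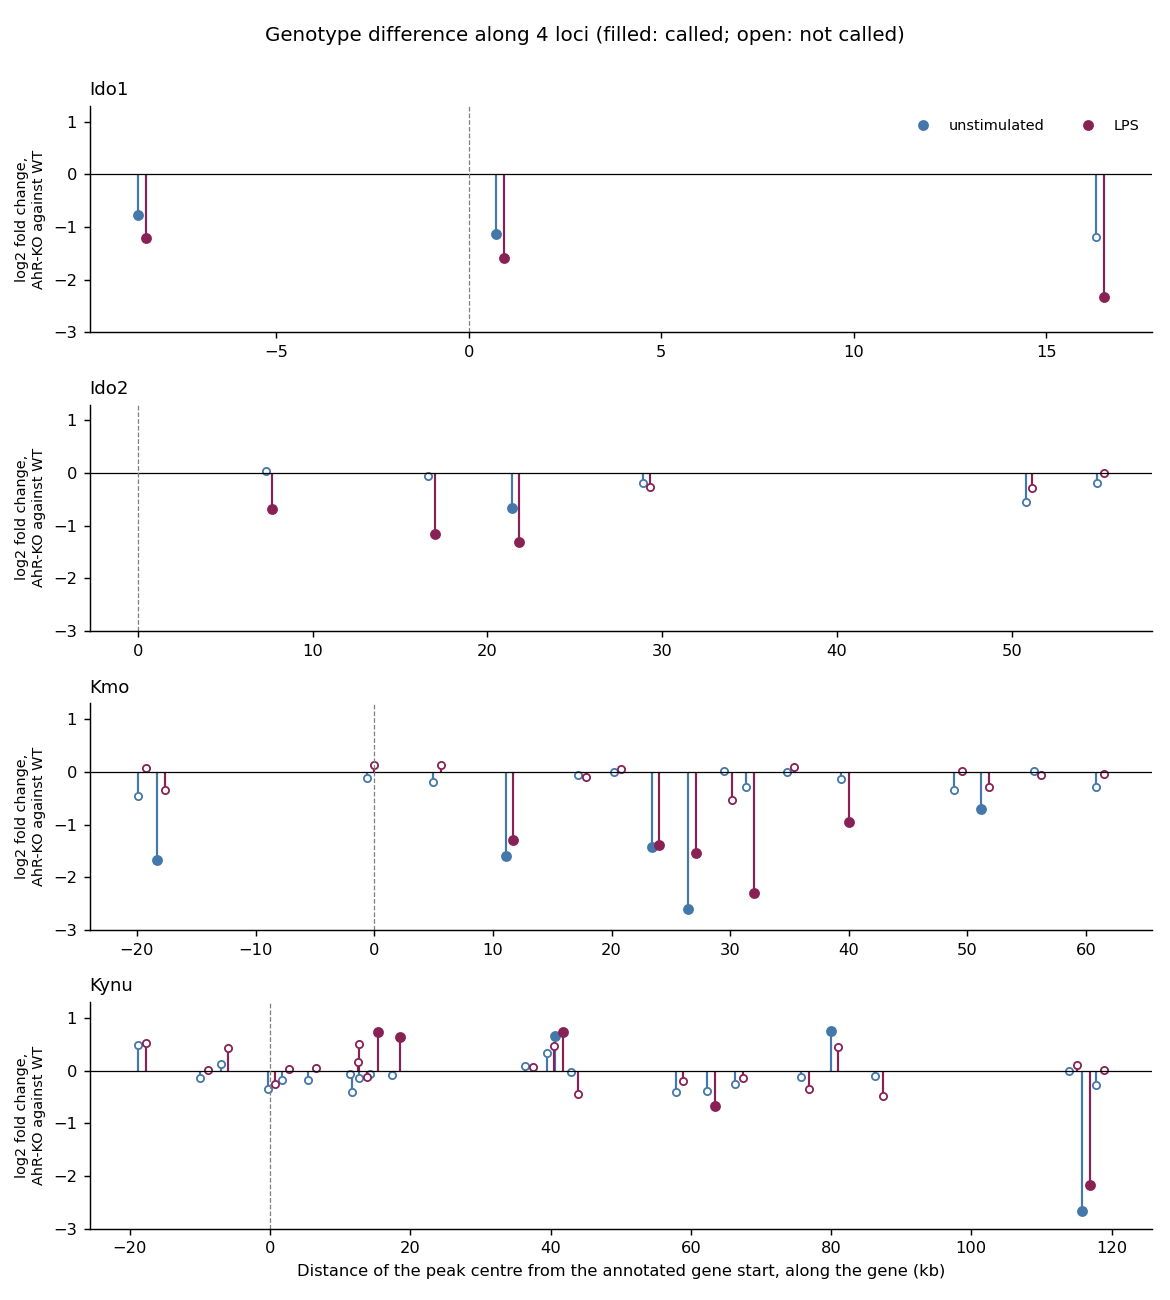
Log2 fold change of AhR-deficient (AhR-KO) against WT BMDMs (y axis) at each tested peak of Ido1, Ido2, Kmo and Kynu against the distance of its centre from the annotated gene start in kb (x axis), blue for unstimulated and purple for LPS, filled where called, each pair drawn slightly apart. All 3 Ido1 peaks lie below 0, in Kmo the called peaks are interspersed with peaks near 0, and Kynu has 1 peak far below 0 near its 3′ end and higher calls within the gene.

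Tdo2 encodes tryptophan 2,3-dioxygenase, which is best known from liver (chr3:81957090-81976202, minus strand), and no peak covered its start. Its 9 tested peaks included 2 called under genotype, both upstream and both higher in AhR-deficient cultures under both treatments. Tdo2 -7.2 kb (chr3:81982467-81984268), within the neighbouring gene Asic5, had a lowest, median and highest level of 5.55, 7.25 and 9.54 CPM in unstimulated WT and 11.6, 15.6 and 18.2 CPM in unstimulated AhR-deficient cultures. After LPS the levels were 5.99, 7.69 and 11.8 CPM in WT and 12.1, 14.4 and 16.6 CPM in AhR-deficient cultures. The genotypes did not overlap under either treatment, and the differences were 2.13-fold and 1.75-fold (log2 fold changes 1.09 ± 0.15 and 0.81 ± 0.14, adjusted p = 1.04e-06 and 2.8e-05). The small peak Tdo2 -5.6 kb differed likewise by 1.06 ± 0.29 and 0.94 ± 0.22. LPS raised Tdo2 +32.2 kb, within Ctso, in both genotypes (1.44 ± 0.28 and 1.75 ± 0.26), whereas the peaks inside the Tdo2 gene were all below 2 CPM on average and none was called.

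Il4i1 shares its annotated start on chromosome 7 with Nup62 and Atf5 (chr7:44816387-44840809, plus strand), and 2 further peaks covered starts of its coding transcripts within the gene. At the shared start, Il4i1 -0.1 kb had means of 36.1 ± 3.0 and 47.7 ± 5.73 CPM in unstimulated WT and AhR-deficient cultures and 34.2 ± 2.74 and 35.4 ± 3.34 CPM after LPS, and was not called in any comparison. The internal start Il4i1 +19.5 kb (chr7:44835348-44836516), where RefSeq places the promoter of the gene, behaved otherwise. It had a lowest, median and highest level of 4.77, 5.68 and 7.0 CPM in unstimulated WT, 2.68, 2.96 and 3.79 CPM in unstimulated AhR-deficient, 17.1, 23.5 and 30.7 CPM in LPS-stimulated WT and 8.59, 13.1 and 16.4 CPM in LPS-stimulated AhR-deficient cultures. Each of the 4 comparisons separated its groups without overlap. LPS raised this Il4i1 start 4.16-fold in WT and 4.14-fold in AhR-deficient cultures (log2 fold changes 2.06 ± 0.14 and 2.05 ± 0.16, adjusted p = 4.07e-13 and 1.55e-12). AhR-deficient cultures were 1.89-fold lower before LPS (-0.92 ± 0.17, adjusted p = 7.71e-05) and 1.90-fold lower after it (-0.93 ± 0.13, adjusted p = 1.09e-06), and the change of the genotype difference was -0.01 with a 95% interval of -0.51 to 0.49.

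At 3 other peaks of Il4i1 the genotype difference did change with LPS. The intronic peak Il4i1 +17.9 kb (chr7:44834166-44834416) had 0.0660, 0.263 and 0.545 CPM as its lowest, median and highest level in unstimulated WT and 0.0435, 0.169 and 0.236 CPM in unstimulated AhR-deficient cultures, which is 1 to 11 counts a library. After LPS it had 1.23, 3.02 and 5.12 CPM in WT and 0.243, 0.343 and 0.587 CPM in AhR-deficient cultures, and the study's own peak caller found it in 5 of 6 LPS-stimulated WT libraries and in none of the other 18. LPS-stimulated AhR-deficient cultures were 8.68-fold lower, without overlap (log2 fold change -3.12 ± 0.30, adjusted p = 1.33e-09). LPS raised the peak 11.6-fold in WT (3.54 ± 0.34, adjusted p = 2.1e-10) and 2.27-fold in AhR-deficient cultures (1.18 ± 0.50, adjusted p = 0.0366). The change of the genotype difference was -2.36 ± 0.69 (adjusted p = 0.019).

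The third start peak, Il4i1 +24.6 kb, and the peak over an untranslated exon, Il4i1 +15.7 kb, rose with LPS in WT (log2 fold changes 0.90 ± 0.16 and 0.71 ± 0.13) and stood at 0.02 ± 0.16 and 0.03 ± 0.13 in AhR-deficient cultures. The genotype difference changed with LPS by -0.88 ± 0.23 (adjusted p = 0.00958) and -0.68 ± 0.18 (adjusted p = 0.00859). In LPS-stimulated cultures AhR-deficient libraries were lower at both (-0.70 ± 0.15 and -0.64 ± 0.12), with overlap at the first and none at the second. The intronic peak Il4i1 +10.2 kb, which lies within Nup62, rose with LPS in both genotypes (1.08 in WT and 0.63 in AhR-deficient cultures).

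**Figure D3:**
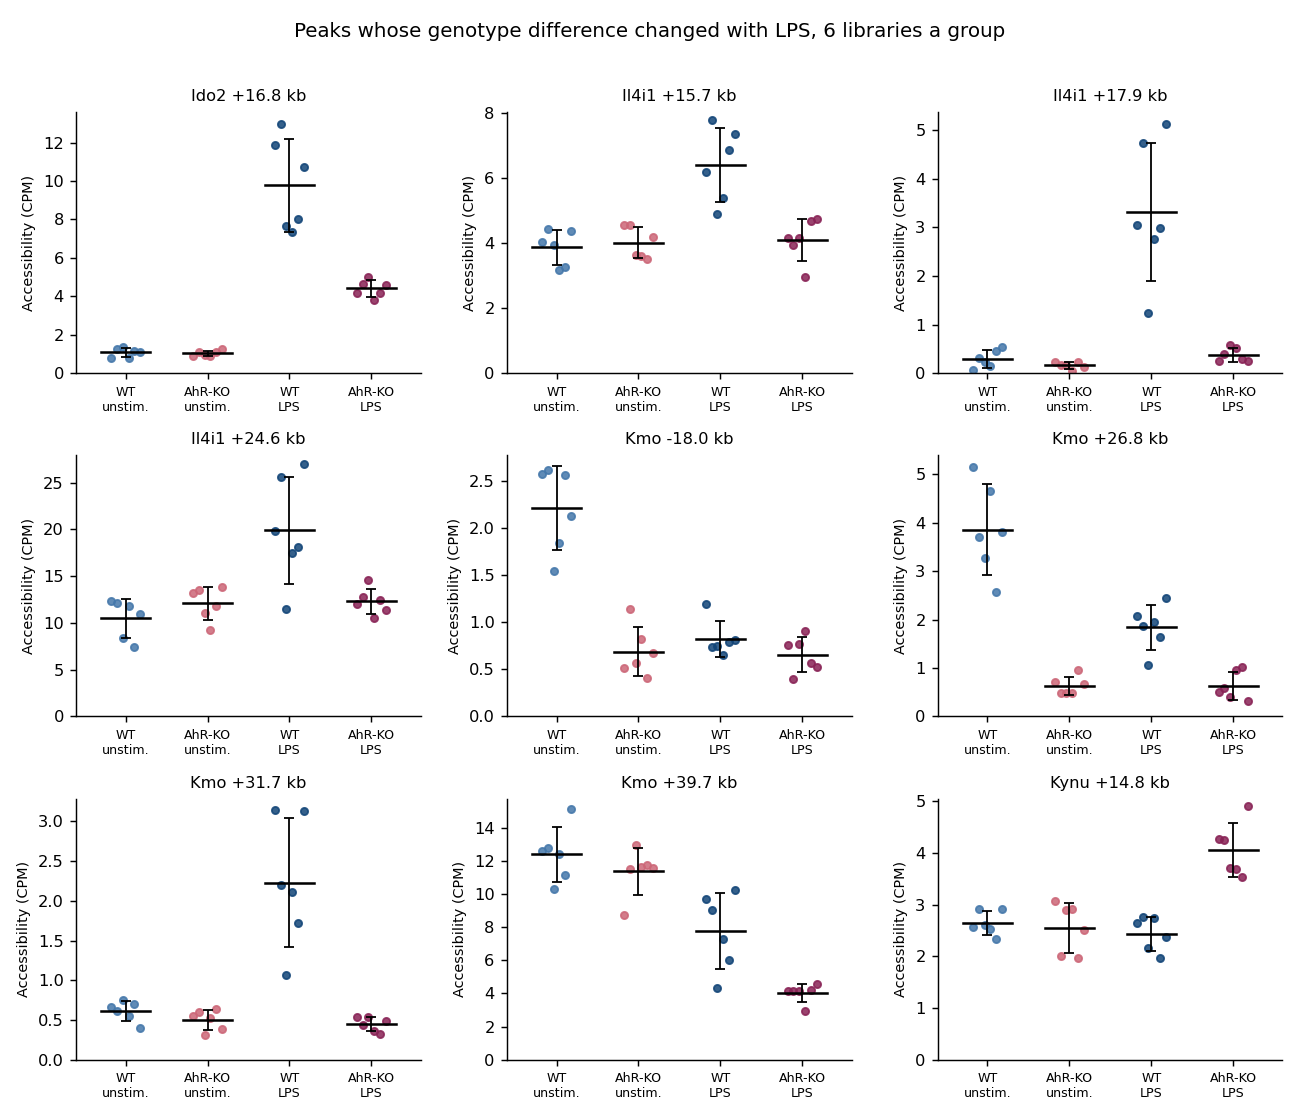
CPM (y axis) of the 9 peaks whose genotype difference changed with LPS, 1 panel a peak, with 1 point for each of 6 libraries in each of the 4 groups and lines for mean ± SD. LPS-stimulated WT libraries stand above the other groups at Ido2 +16.8 kb, Il4i1 +17.9 kb and Kmo +31.7 kb, unstimulated WT libraries do so at Kmo -18.0 kb and Kmo +26.8 kb, and LPS-stimulated AhR-deficient libraries do so at Kynu +14.8 kb.

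Afmid, the formamidase (chr11:117825924-117839908, plus strand), starts back to back with Tk1, and its start peak was not called between the genotypes. Afmid -0.7 kb had means of 13.7 ± 0.939 and 17.9 ± 2.04 CPM in unstimulated WT and AhR-deficient cultures and 9.61 ± 1.33 and 11.8 ± 1.42 CPM after LPS. The genotype differences were 0.39 ± 0.09 and 0.30 ± 0.09 on the log2 scale, below the fold required, with adjusted p = 0.000525 and 0.00544. LPS lowered it in AhR-deficient cultures 1.51-fold (-0.60 ± 0.09, adjusted p = 2.2e-07), a call at the limit of the fold that was lost without any 1 of 4 libraries (-0.55 to -0.58). In WT the log2 fold change was -0.51 ± 0.09 (adjusted p = 7.94e-06), and the treatments did not overlap in either genotype. Of the 10 Afmid peaks, 4 were higher in unstimulated AhR-deficient cultures, among them the peaks over a coding exon at Afmid +2.6 kb (0.66 ± 0.09, adjusted p = 1.04e-07) and in an intron at Afmid +4.5 kb (0.61).

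The upstream peak Afmid -18.0 kb carried the largest change of this gene. Its lowest, median and highest level was 0.462, 0.899 and 1.16 CPM in unstimulated WT, 1.28, 1.55 and 1.85 CPM in unstimulated AhR-deficient, 3.63, 4.78 and 5.35 CPM in LPS-stimulated WT and 7.81, 8.54 and 9.57 CPM in LPS-stimulated AhR-deficient cultures. No neighbouring pair of groups in that order overlapped. AhR-deficient cultures were 1.77-fold and 1.82-fold higher (log2 fold changes 0.83 ± 0.17 and 0.87 ± 0.11, adjusted p = 0.000165 and 2.99e-08), and LPS raised the peak 5.34-fold and 5.49-fold in WT and AhR-deficient cultures. The small peak Afmid +29.6 kb, downstream within Birc5, was the 1 Afmid peak lower in AhR-deficient cultures under both treatments (-1.09 ± 0.29 and -0.86 ± 0.23), on 3 to 34 counts a library.

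Kmo encodes kynurenine 3-monooxygenase, the outer mitochondrial enzyme that commits kynurenine to the branch of 3-hydroxykynurenine (chr1:175620381-175662116, plus strand). No peak covered its first annotated start, which lies within Fh1, and the peak over a start of its coding transcripts was Kmo +11.4 kb (chr1:175631242-175632307), which holds the RefSeq promoter of the gene. In unstimulated WT cultures this peak had a lowest, median and highest level of 11.1, 19.3 and 24.8 CPM, against 5.30, 5.90 and 7.59 CPM in AhR-deficient cultures. After LPS it had 12.3, 23 and 25.5 CPM in WT and 6.68, 8.65 and 10.1 CPM in AhR-deficient cultures. The genotypes did not overlap, with 3.02-fold and 2.45-fold lower levels in AhR-deficient cultures (log2 fold changes -1.59 ± 0.20 and -1.29 ± 0.18, adjusted p = 5.36e-07 and 3.47e-06). LPS changed it in neither genotype by the call used (0.14 ± 0.18 in WT and 0.44 ± 0.20 in AhR-deficient cultures, adjusted p = 0.495 and 0.0557).

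Within the gene, Kmo +23.7 kb (intron) and Kmo +26.8 kb (coding exon) were also lower in AhR-deficient cultures under both treatments without overlap. Kmo +23.7 kb had means of 12.4 ± 3.15 and 4.66 ± 0.382 CPM in unstimulated WT and AhR-deficient cultures and 11.2 ± 2.86 and 4.28 ± 0.614 CPM after LPS. Kmo +26.8 kb was 6.11-fold lower in unstimulated AhR-deficient cultures (-2.61 ± 0.23, adjusted p = 2.65e-11) and 2.89-fold lower after LPS (-1.53 ± 0.23, adjusted p = 1.2e-06). LPS lowered Kmo +26.8 kb 2.12-fold in WT, while AhR-deficient cultures stood at 0.632 ± 0.190 and 0.630 ± 0.288 CPM. The large intronic peak Kmo +20.5 kb, between these and the start, had means of 37.4 to 41.7 CPM in the 4 groups and was not called in any comparison.

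The genotype difference at Kmo changed with LPS in opposite directions at different peaks. The intronic peak Kmo +31.7 kb had a lowest, median and highest level of 0.396, 0.635 and 0.750 CPM in unstimulated WT, 0.307, 0.536 and 0.638 CPM in unstimulated AhR-deficient, 1.06, 2.16 and 3.15 CPM in LPS-stimulated WT and 0.326, 0.461 and 0.542 CPM in LPS-stimulated AhR-deficient cultures. It rose 3.68-fold with LPS in WT (log2 fold change 1.88 ± 0.23, adjusted p = 8.24e-09), and in AhR-deficient cultures the value was -0.15 ± 0.29 (adjusted p = 0.668). The change of the difference was -2.03 ± 0.38 (adjusted p = 0.000327). Kmo +39.7 kb, over a coding exon near the 3′ end, fell with LPS in both genotypes and further in AhR-deficient cultures (change of the difference -0.82 ± 0.21, adjusted p = 0.00941). In contrast, Kmo -18.0 kb within Fh1 was 3.20-fold lower in unstimulated AhR-deficient cultures (-1.68 ± 0.22) and at -0.33 ± 0.22 after LPS, where WT had fallen to the level of AhR-deficient cultures (change of the difference 1.34 ± 0.32, adjusted p = 0.00338). Kmo +26.8 kb changed in the same direction (1.08 ± 0.34, adjusted p = 0.0262).

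Kynu, the kynureninase (chr2:43555329-43682715, plus strand), had the most tested peaks, 24, and its start peak was not called between the genotypes. Kynu +0.2 kb had means of 27.7 ± 1.72 and 21.9 ± 1.54 CPM in unstimulated WT and AhR-deficient cultures and 18.5 ± 1.87 and 15.6 ± 1.28 CPM after LPS. The log2 fold changes of -0.34 ± 0.07 and -0.25 ± 0.07 between the genotypes and of -0.58 ± 0.07 and -0.49 ± 0.07 with LPS were all under the fold required. The unstimulated genotypes did not overlap, nor did the treatments in either genotype, while the genotypes overlapped after LPS. The largest fold change by genotype among the 94 peaks in unstimulated cultures was instead near the 3′ end of the gene. Kynu +116.4 kb (chr2:43671375-43672047, over a coding exon) had a lowest, median and highest level of 5.82, 10.7 and 13.6 CPM in unstimulated WT and 1.09, 1.42 and 2.72 CPM in unstimulated AhR-deficient cultures. After LPS it had 5.94, 14.9 and 18.5 CPM in WT and 1.83, 2.69 and 5.60 CPM in AhR-deficient cultures. The genotypes did not overlap, with 6.37-fold and 4.49-fold lower levels in AhR-deficient cultures (log2 fold changes -2.67 ± 0.35 and -2.17 ± 0.30, adjusted p = 2e-06 and 4.56e-06). The neighbouring peak Kynu +118.4 kb had means of 7.25, 5.95, 7.40 and 7.45 CPM in the order unstimulated WT, unstimulated AhR-deficient, LPS-stimulated WT and LPS-stimulated AhR-deficient, and was not called.

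Other Kynu peaks were higher in AhR-deficient cultures. Kynu +80.5 kb (coding exon) was 1.69-fold higher in unstimulated AhR-deficient cultures (0.76 ± 0.14, adjusted p = 3.42e-05), and the intronic peak Kynu +41.2 kb was higher under both treatments (0.66 and 0.73). Kynu +14.8 kb (chr2:43569819-43570530) had means of 2.65 ± 0.234, 2.56 ± 0.484 and 2.44 ± 0.330 CPM in unstimulated WT, unstimulated AhR-deficient and LPS-stimulated WT cultures and 4.06 ± 0.517 CPM in LPS-stimulated AhR-deficient cultures. It rose with LPS in AhR-deficient cultures (0.66 ± 0.12, adjusted p = 1.77e-05), the value in WT was -0.13 ± 0.13 (adjusted p = 0.402), and the change of the genotype difference was 0.79 ± 0.18 (adjusted p = 0.00279). With LPS the Kynu locus moved in both directions, 5 peaks lower and 6 higher in WT. Kynu -6.5 kb rose 1.72-fold and 2.15-fold in WT and AhR-deficient cultures, Kynu +2.2 kb rose 2.00-fold and 2.32-fold, and Kynu +36.9 kb fell 2.45-fold in each genotype (-1.29 ± 0.08 and -1.30 ± 0.08).

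Haao, which makes the precursor of quinolinic acid (chr17:83831156-83847963, minus strand), had a start peak that was called lower with LPS in both genotypes. Its start peak Haao +0.7 kb (chr17:83846199-83848239) had a lowest, median and highest level of 37.2, 43.9 and 47.9 CPM in unstimulated WT, 28, 33.3 and 35.9 CPM in unstimulated AhR-deficient, 23.5, 27.1 and 33.9 CPM in LPS-stimulated WT and 14.6, 16.3 and 17.2 CPM in LPS-stimulated AhR-deficient cultures. Neither the genotypes within a treatment nor the treatments within a genotype overlapped. LPS lowered the Haao start 1.55-fold in WT (log2 fold change -0.63 ± 0.08, adjusted p = 9.37e-09, and -0.58 and not called without LPS-stimulated WT replicate 3) and 2.04-fold in AhR-deficient cultures (-1.03 ± 0.08, adjusted p = 1.47e-13). AhR-deficient cultures were 1.74-fold lower after LPS (-0.80 ± 0.08, adjusted p = 7.02e-10), and the unstimulated difference of -0.40 ± 0.08 was under the fold required. The change of the difference, -0.40 ± 0.11, had an adjusted p of 0.013 and was likewise under it. The downstream peaks Haao +31.3 kb, within Mta3, and Haao +18.5 kb were lower in AhR-deficient cultures under both treatments (log2 fold changes -1.36 and -0.80 at the first, -0.59 and -0.65 at the second), each without overlap. Haao +14.1 kb (intron) was the 1 Haao peak higher in unstimulated AhR-deficient cultures (0.59 ± 0.20, adjusted p = 0.0179), at a fold change close to the limit of 1.5, and was not called without any 1 of 5 libraries (0.48 to 0.57).

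**Figure D4:**
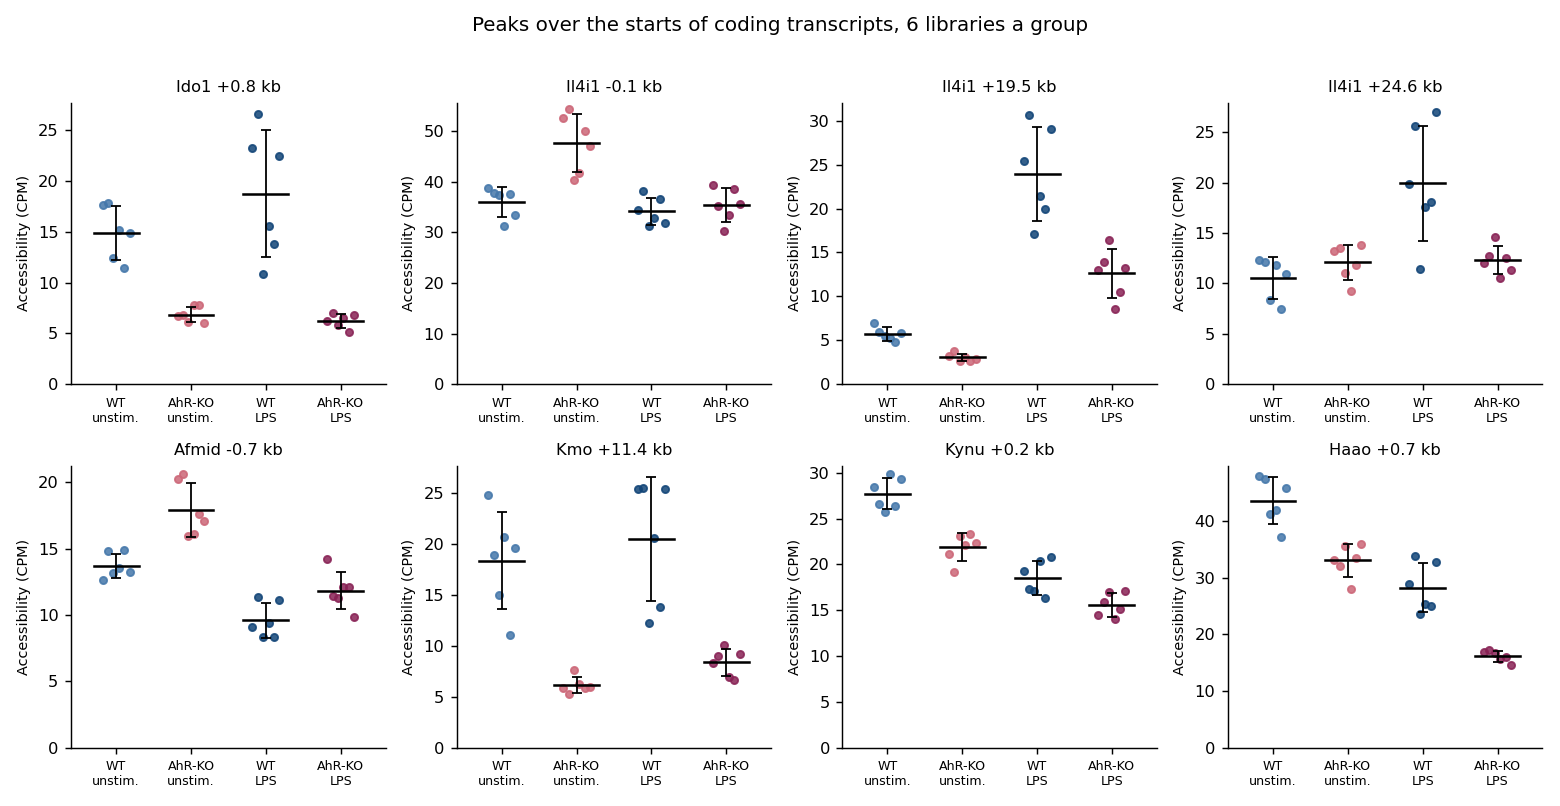
CPM (y axis) of the 8 peaks over starts of coding transcripts, 1 panel a peak, with 1 point for each of 6 libraries in each of the 4 groups and lines for mean ± SD. AhR-deficient (AhR-KO) libraries lie below WT at Ido1, Kmo, Haao and Il4i1 +19.5 kb under both treatments. Il4i1 +19.5 kb is the start that rises most with LPS, and the Haao, Kynu and Afmid starts have lower means with LPS in both genotypes.

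The start peaks differ in length, so their levels were compared per kb of peak. In unstimulated WT cultures Il4i1 -0.1 kb (25.5 ± 2.12 CPM per kb), Kynu (23.9 ± 1.48) and Haao (21.3 ± 2.05) ranked highest, and the ranges of mean ± SD of neighbours in this order overlapped. Kmo followed at 17.2 ± 4.47 CPM per kb, then Afmid (7.01 ± 0.480), Ido1 (6.61 ± 1.17), Il4i1 +19.5 kb (4.89 ± 0.655) and Il4i1 +24.6 kb (2.94 ± 0.584). In LPS-stimulated AhR-deficient cultures Ido1 was the lowest of these at 2.77 ± 0.308 CPM per kb, and Il4i1 +19.5 kb had reached 10.8 ± 2.35 CPM per kb.

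There were 11 peaks lower and 4 higher in AhR-deficient cultures under both treatments. The 11 were at Kmo (3), Ido1 (2), Haao (2), Ido2 (1, whose unstimulated call was lost with DESeq2), Il4i1, Kynu and Afmid (1 each), and the 4 at Tdo2 (2), Kynu and Afmid (1 each). GCGTG was in the 300 base windows of 4 of the 11 and of 0 of the 4. At Afmid +29.6 kb, among the 11, the match lay outside the peak, which is shorter than its window. Of the 23 peaks lower in AhR-deficient cultures under either treatment, 7 held GCGTG in the window (30.4%), beside 15 of the other 71 tested peaks (21.1%) and 16.3% of all tested windows. Over the RefSeq promoters of the mouse, 250 bases before to 50 after the start, 32.4% held it. RefSeq's table gave promoters for 5 of the 8 genes, and those of Haao and Tdo2 held GCGTG, while those of Kmo, Il4i1 and Afmid did not.

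The cultures can hold other cells beside macrophages. All 8 macrophage markers had a start peak and none was called between the genotypes, with summed levels of 194 to 216 CPM in unstimulated WT and 226 to 301 CPM in unstimulated AhR-deficient cultures, and of 168 to 189 and 158 to 222 CPM after LPS. Of the 7 dendritic cell markers 4 had one, while Xcr1, Clec9a and Cd209a, which define subsets of these cells, had none. The summed level of the 4 was 27.8 to 38 CPM in unstimulated WT and 28.6 to 34.7 CPM in unstimulated AhR-deficient cultures, and 36.1 to 72.0 and 22.4 to 31.2 CPM after LPS. Flt3, the receptor that supports dendritic cell growth, was lower in AhR-deficient cultures under both treatments (-1.16 and -1.29), Ccr7 and Fscn1 were lower after LPS (-1.53 and -2.47), and Zbtb46 was not called (0.21 unstimulated and -0.19 after LPS). Of the 6 neutrophil and progenitor markers 4 had a start peak, of which Kit (-1.21 and -1.24) and Cd34 (-1.05 and -1.11) were lower in AhR-deficient cultures under both treatments, while S100a8 (0.25 and 0.09) and Mpo (0.47 and 0.16) were not called. The summed level of the 4 was 46.5 to 54.9 CPM in unstimulated WT and 36.7 to 41.6 CPM in unstimulated AhR-deficient cultures, and 42.4 to 47.3 and 31.7 to 36 CPM after LPS. All 5 alveolar macrophage markers had a start peak, summing to 48.1 to 58.4 and 71.1 to 88.2 CPM in unstimulated WT and AhR-deficient cultures and to 44.1 to 54.3 and 52.8 to 67.5 CPM after LPS. The alveolar macrophage markers Itgax, Car4 and Marco were higher in unstimulated AhR-deficient cultures (0.72, 0.61 and 0.94). None of the 3 T cell and 3 B cell markers had a start peak, and the 2 of 3 stromal markers with one were not called between the genotypes.

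The Flt3 start peak had a median of 9.49 CPM in unstimulated WT, 4.36 CPM in unstimulated AhR-deficient, 11.5 CPM in LPS-stimulated WT and 4.89 CPM in LPS-stimulated AhR-deficient cultures. It was compared, after its values were seen, with each of the 11 peaks lower in AhR-deficient cultures under both treatments, within each group of 6 libraries, 44 relations in all. The other markers of the lists were not compared in this way. In unstimulated WT 10 of the 11 correlated positively with Flt3 (median Pearson r = 0.89), and so did 10 of 11 in LPS-stimulated WT (median 0.90). In unstimulated AhR-deficient libraries 7 did so (median 0.20), and in LPS-stimulated AhR-deficient libraries 8 (median 0.45). The share of all tested peaks that did so was not computed, so these counts cannot be called particular to the 11 peaks. Replicates 3 and 5 had the lowest Flt3 levels in both WT groups (7.5 and 5.93 CPM unstimulated, 8.56 and 8.12 CPM after LPS). How these libraries differed from others over all peaks is given below, and its part in the correlations was not tested. For the Ido1 start in LPS-stimulated WT, r was 0.97 (exact permutation p = 0.00417, two-sided) and Spearman's rho 0.94 (exact permutation p = 0.0167), with r = 0.98 without the 2 libraries farthest from the median of Flt3. After Benjamini-Hochberg adjustment over the 44 relations the lowest exact permutation p of Pearson's r was 0.0611, and no relation passed 0.05. With 6 libraries the smallest exact permutation p is 0.00139, which times 44 is 0.0611. A relation could thus have passed 0.05 only along with others of small p. The part of the dendritic cell and progenitor markers in the genotype differences was not tested.

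**Figure D5:**
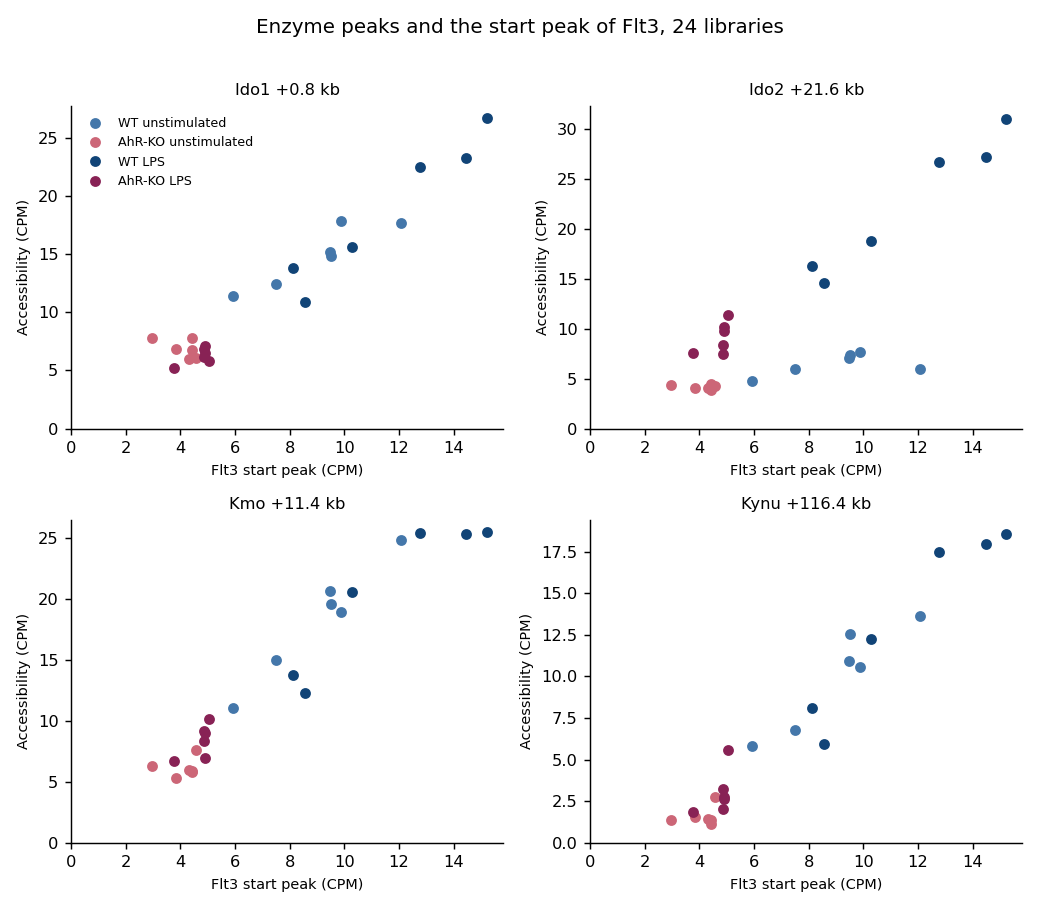
CPM of Ido1 +0.8 kb, Ido2 +21.6 kb, Kmo +11.4 kb and Kynu +116.4 kb (y axes) against CPM of the start peak of Flt3 (x axis), 1 point for each of the 24 libraries, coloured by group. AhR-deficient (AhR-KO) libraries gather between 2.95 and 5.06 CPM of Flt3, and the WT libraries spread from 5.93 to 15.2 CPM.

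Over the 24 libraries, the genes whose start peaks were most like those of the called members in log2 CPM were Fam124b (Pearson r = 0.96), Synpo2 and Cd96 for Ido1, and St8sia4 (0.97), Flt3 (0.96) and Gimap5 for Kmo +11.4 kb. They were Slc5a11 (0.97), Rassf2 and Gna14 for Haao, Ankrd33b (0.97), Clu and Gem for Il4i1 +19.5 kb, Nudt17 (0.92), Pla2g4f and Exoc3l4 for Il4i1 +24.6 kb, and Pld4 (0.96), Lpl and Cs for Afmid. The points share libraries, depth and the 4 groups, and the values are a description of likeness only.

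Other genes of tryptophan use, a list of 21 for the kynurenine aminotransferases, the quinolinate and serotonin branches, transport and the kynurenic acid receptor, had 196 tested peaks by the same rule. Of these 19 were lower and 25 higher in unstimulated AhR-deficient cultures (22.4%), and 19 lower and 23 higher after LPS (21.4%). LPS lowered 42 and raised 29 in WT (36.2%), lowered 42 and raised 37 in AhR-deficient cultures (40.3%), and the genotype difference changed at 11 (5.61%), beside the shares of all tested peaks given above. Among the start peaks of the list the 1 called was that of Maob, a monoamine oxidase, at 1.39 ± 0.181 and 2.51 ± 0.463 CPM in unstimulated WT and AhR-deficient cultures and 0.792 ± 0.230 and 1.28 ± 0.339 CPM after LPS. Kyat3, Aadat and Got2, which turn kynurenine into kynurenic acid, and Slc7a5, a transporter of tryptophan, had start peaks that were not called in any comparison.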

How the data were processed

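Chromatin accessibility was measured by ATAC-seq (Nextera tagmentation) in 24 BMDM libraries. Per the labels and file headers, the authors demultiplexed reads with bcl2fastq 2.20.0, aligned them to mm10, called peaks per library with MACS2 and deposited a consensus table of raw read counts made with featureCounts 2.0.1 (minimum overlap fraction 0.2) and, per library, peak lists with −log10 q values of at least 1.00. The aligner is not given in the sources used here. All count columns matched a sample by its label, and none was left unmatched. Groups came from the labels, each count column being 1 library.

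Counts of peaks passing filterByExpr were scaled by TMM (factors 0.976 to 1.04) and tested in 1 fit over the 4 groups by edgeR 4.0.16 (quasi-likelihood, R 4.3.3) with Benjamini-Hochberg adjustment over all 174193 tested peaks. The same script was checked on simulated data. The peak lists were used only to count the libraries with an own call. Peaks named in the text were every peak over a member's coding start and, per gene, comparison and direction, the called peak with the smallest p, 32 in all, and the others were named after their values were seen. The members and lists were chosen with earlier results of these data known. Alternatives were DESeq2 1.42.0, RLE factors, no filter, the replicate number as a block, only the groups compared, leaving out each library, a 5 kb window and no fold limit.

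The total count per library was 8536838 to 34598345, so peaks of a few counts carry wide errors. The closest of 60 pairs within a group, unstimulated WT replicates 3 and 5, had a chi-square of 1.25 per peak, above sampling noise. In LPS-stimulated WT, replicate 3 differed from replicates 1, 2 and 6 at 6.77, 7.58 and 8.43 per peak, and from replicate 5 at 2.20. Replicates 1, 2 and 6 differed from each other at 1.68 to 2.96. The replicate numbers were not used as pairs. The methods give 6 animals a group in 1 experiment, the labels do not say whether unstimulated and LPS cultures share animals, and p-values measure the spread between these libraries. The sequence of 1 window is not reported here.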

Additional observations from a re-analysis of the deposited data

Results flagged for a closer look

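At 7 of 128 groups of 6 libraries over the 32 named peaks, 1 library stood far from the others of its group (its gap to the nearest other over the range was above Dixon's 95% critical value), and chance alone gives about 1 in 20 such groups. Haao +24.2 kb had 5.64 CPM in LPS-stimulated AhR-deficient replicate 3, beside 3.0 to 3.99 CPM in the others. Kmo +39.7 kb had 8.73 CPM in unstimulated AhR-deficient replicate 1, beside 11.5 to 13 CPM, and 2.97 CPM in LPS-stimulated AhR-deficient replicate 4, beside 4.13 to 4.58 CPM. Kmo -18.0 kb had 1.2 CPM in LPS-stimulated WT replicate 1, beside 0.651 to 0.815 CPM. Kynu +116.4 kb had 2.72 CPM in unstimulated AhR-deficient replicate 3, beside 1.09 to 1.57 CPM, and 5.60 CPM in LPS-stimulated AhR-deficient replicate 3, beside 1.83 to 3.20 CPM. Kynu +80.5 kb had 6.43 CPM in LPS-stimulated WT replicate 3, beside 2.83 to 4.04 CPM.

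The genotype difference changed with LPS, by the interaction term of the edgeR fit, at 9 peaks. Relative to WT, AhR-deficient cultures became lower with LPS at Ido2 +16.8 kb (-1.09 on the log2 scale, adjusted p = 0.00211), Il4i1 +15.7 kb (-0.68, adjusted p = 0.00859), Il4i1 +17.9 kb (-2.36, adjusted p = 0.019), Il4i1 +24.6 kb (-0.88, adjusted p = 0.00958), Kmo +31.7 kb (-2.03, adjusted p = 0.000327) and Kmo +39.7 kb (-0.82, adjusted p = 0.00941). They became higher relative to WT at Kmo -18.0 kb (1.34, adjusted p = 0.00338), Kmo +26.8 kb (1.08, adjusted p = 0.0262) and Kynu +14.8 kb (0.79, adjusted p = 0.00279). Their causes were not tested.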

How the results depend on the processing

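With a window of 5 kb in place of 20 kb, 14 peaks were called by genotype in unstimulated cultures (22 with 20 kb) and 25 with LPS in AhR-deficient cultures (38), since 61 tested peaks lie in it. As shares of the 61, 23% were called by genotype in unstimulated cultures (23.4% of the 94), 34.4% after LPS (28.7%, with 18 lower and 3 higher), 42.6% and 41.0% with LPS in WT and AhR-deficient cultures (41.5% and 40.4%) and 13.1% for the interaction (9.57%). Without a fold limit, 39 were called by genotype in unstimulated cultures, 44 after LPS (27 with the limit), 63 with LPS in AhR-deficient cultures and 16 for the interaction (9), and for the other pathway genes 81, 84, 107, 126 and 21 in the 5 comparisons (44, 42, 71, 79 and 11 with the limit). Leaving out each library gave 19 to 24, 25 to 29, 37 to 42, 32 to 38 and 8 to 11 called peaks in the 5 comparisons, and 41 to 47, 39 to 50, 69 to 77, 74 to 83 and 9 to 14 for the other pathway genes. The replicate block gave 22, 27, 39, 37 and 11, and 47, 44, 71, 80 and 11 for the other pathway genes, and changed no call of a named peak. The deviations of same-numbered libraries from their group means correlated between the genotypes at -0.0967 to 0.0478 in unstimulated cultures and -0.128 to 0.219 after LPS. Between the treatments they did so at 0.037 to 0.290 in WT (5 of 6 pairs above 0.1, 4 of 6 best matched by their own number) and 0.00375 to 0.171 in AhR-deficient cultures (2 and 3 of 6), so that a pairing of the treatments, above all in WT, is hinted at by the data and not given by the labels. The alternatives for the other pathway genes were chosen after seeing the data.

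Values near 0 changed sign. LPS in AhR-deficient cultures at Il4i1 +24.6 kb (0.02) was -0.018 with DESeq2, -0.019 with RLE factors, -0.010 with only the groups compared and -0.046 to 0.063 without single libraries. The interaction at Il4i1 +19.5 kb (-0.01) was -0.11 to 0.082 without single libraries. Near the fold limit, Ido2 +21.6 kb in unstimulated cultures was -0.58 with DESeq2 and not called. The Haao start with LPS in WT was -0.58 and not called without LPS-stimulated WT replicate 3. The Afmid start with LPS in AhR-deficient cultures was not called without unstimulated AhR-deficient replicates 1 or 2 or LPS-stimulated AhR-deficient replicates 3 or 6, each left out alone (-0.55 to -0.58). Haao +14.1 kb in unstimulated cultures was not called without WT replicates 1 or 2 or AhR-deficient replicates 3, 5 or 6 (0.48 to 0.57). The Kynu start with LPS in WT was called without any 1 of 6 libraries (-0.59 to -0.61). Depth limits the peaks with a few counts a library, such as Ido1 +16.4 kb and Il4i1 +17.9 kb in unstimulated cultures.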
